A study of Mus musculus with 12 samples.

Results

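EGR and NR4A immediate early factors were examined in splenic CD4+ T cells of mice with ligature-induced periodontitis (LIP) and of control mice without ligature (CTL). The 8 genes are a list of names whose rule uses no measured value, although it was set with earlier results of these data known: Egr1, Egr2, Egr3, Nr4a1, Nr4a2, Nr4a3, Ier2 and Ier5, out of 55414 gene records in the count table. All mice were wild-type male BALB/c mice aged 18 weeks, and in the LIP group both maxillary second molars had carried ligatures for 2 weeks. On day 0 the cells were collected directly after isolation by negative selection, and on day 2 they had been cultured with IL-2 and with antibodies to TCRβ and CD28, which engage the T cell receptor and its costimulator. Each of the 4 groups (CTL and LIP on day 0, CTL and LIP on day 2) held 3 libraries, which are called here by group and label number: CTL 88, 89 and 94 and LIP 92, 93 and 94 on day 0, and CTL 92, 93 and 97 and LIP 90, 96 and 97 on day 2. The labels do not say whether each library came from 1 mouse, so p-values measure the spread between these libraries, which may be technical. The protocol names anti-CD28 for every cultured sample, but on day 2 the individual treatment labels read anti-CD29 in CTL 93 as well as LIP 96, with anti-CD30 in both libraries numbered 97.

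Immediate early genes are transcribed within minutes of a signal at the cell surface, before new protein is made. In T cells, engagement of the receptor activates Ras and ERK kinases, which act through the serum response factor, and calcium, which acts through calcineurin, NFAT and MEF2. EGR proteins are zinc finger factors: Egr1 accompanies activation, while Egr2 and Egr3 are known for restraining T cells and for anergy. The NR4A proteins are orphan nuclear receptors: Nr4a1 (Nur77) is widely used as a reporter of receptor signal strength, and Nr4a2 and Nr4a3 are its close relatives, linked to tolerance and exhaustion. Ier2 and Ier5 encode small related nuclear proteins, and Ier5 is known to act with heat shock factor 1.

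Promoter sequence is shown for those 4 members of the RefSeq promoter table that were higher after culture, to show which response elements lie near their start sites. The table (build GRCm38.p6) held 5 of the 8 members, namely Egr2, Nr4a1, Nr4a2, Nr4a3 and Ier5; Egr1, Egr3 and Ier2 are named only. The 250 bases before each start site were located on GRCm39 by exact match, with 1 match each, at chr10:67373449-67373698 (plus strand, Egr2), chr15:101164477-101164726 (plus strand, Nr4a1), chr2:57014016-57014265 (minus strand, Nr4a2) and chr4:48045055-48045304 (plus strand, Nr4a3). Capitals mark matches to TGACG, which is one arm of the cyclic AMP response element, to the EGR site GCGNGGGCG, to the CArG box, the site of the serum response factor, and to the MEF2 box, each read on both strands.
Egr2: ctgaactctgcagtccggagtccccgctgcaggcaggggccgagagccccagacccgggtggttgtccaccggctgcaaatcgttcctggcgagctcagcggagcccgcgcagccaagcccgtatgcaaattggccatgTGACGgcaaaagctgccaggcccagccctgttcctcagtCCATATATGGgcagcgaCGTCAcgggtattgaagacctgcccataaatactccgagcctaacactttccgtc
Nr4a1: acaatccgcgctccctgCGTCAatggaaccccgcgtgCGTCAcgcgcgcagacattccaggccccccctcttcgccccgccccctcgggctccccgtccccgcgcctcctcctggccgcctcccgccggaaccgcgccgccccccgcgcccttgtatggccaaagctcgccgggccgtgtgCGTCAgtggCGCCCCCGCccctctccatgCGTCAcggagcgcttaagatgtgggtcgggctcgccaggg
Nr4a2: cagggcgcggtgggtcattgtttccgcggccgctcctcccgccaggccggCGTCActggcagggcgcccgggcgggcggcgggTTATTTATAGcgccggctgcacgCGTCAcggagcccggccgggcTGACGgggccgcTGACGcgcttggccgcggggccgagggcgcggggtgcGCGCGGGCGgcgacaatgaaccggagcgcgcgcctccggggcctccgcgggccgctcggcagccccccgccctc
Nr4a3: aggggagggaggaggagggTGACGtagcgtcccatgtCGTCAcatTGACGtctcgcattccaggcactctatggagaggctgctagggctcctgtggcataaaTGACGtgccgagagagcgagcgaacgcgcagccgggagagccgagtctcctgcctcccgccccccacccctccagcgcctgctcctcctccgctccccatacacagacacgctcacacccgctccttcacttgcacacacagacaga

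Each of the 3 NR4A promoters held 4 matches to TGACG, a number reached by 0.138% of the 32536 distinct promoters in the table, of which 17.9% held at least 1. In Nr4a1 they began 233, 213, 69 and 40 bases before the start site, in Nr4a2 200, 144, 123 and 111 bases, and in Nr4a3 231, 213, 205 and 147 bases. Egr2 held 2 such matches, at 111 and 55 bases, and Ier5 held 0. TGACG was searched after the sequences had been seen, so these counts are a description. The only CArG box lay in Egr2, 72 bases before its start (1.48% of promoters hold one). An EGR site was found in Nr4a1 at 60 bases and in Nr4a2 at 74 bases, where it overlaps a GC box GGGCGG (4.74% of promoters hold an EGR site and 33% a GC box). The only MEF2 box lay in Nr4a2, 167 bases before its start (2.89% of promoters hold one), and this form of the box, with either pyrimidine first and either purine last, was chosen after the sequences had been seen. The full cyclic AMP response element TGACGTCA (1.56%), the AP-1 site TGACTCA or TGAGTCA (4.45%), the NR4A monomer site AAAGGTCA (1.35%) and the heat shock core GAANNTTC (6.72%) had no match in any of the 5 windows. A match is only a run of letters, and binding was not measured. The 5 windows held 60.0% to 80.0% G or C, against a median of 52.4% over all promoters. The RefSeq start of Nr4a2 lay 7769 bases from that of the canonical transcript in GENCODE and that of Nr4a3 152 bases, whereas those of the other 3 lay within 67 bases.

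Library totals ranged from 6249094 to 7845715 expected counts on day 0 and from 8691745 to 12866751 on day 2, so that 1 count was worth 0.0896 to 0.151 CPM (counts scaled to a common library total). All levels are CPM normalized by TMM, which scales the 12 libraries by their common genes. Summed CD4 T cell markers (6 genes found) lay between 2129 and 3217 CPM and CD8 markers (Cd8a and Cd8b1) between 4.43 and 13.2 CPM. CTL 94 of day 0 and LIP 90 of day 2 were singled out after the members' values were seen. CTL 94 lay nearest to LIP in Nr4a1, and LIP 90 lay within the CTL range for Egr1 and Nr4a1. Neither stood apart in every member: on day 2 LIP 97 did in Nr4a1 and Nr4a3, and LIP 96 in Nr4a2. Calls between LIP and CTL are given with and without CTL 94 and LIP 90. Leaving out a library near the other group widens a difference by construction, so for the members those calls are no separate evidence. Fewer cells of a type and less RNA per cell cannot be told apart in such bulk libraries.

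Culture was accompanied by the main change in these genes. All 3 Egr and all 3 Nr4a members were higher on day 2 than on day 0 in both groups. The rise of the 5 other than Nr4a2 was 3.80-fold to 15.7-fold in CTL and 4.17-fold to 15.6-fold in LIP, and Nr4a2 went from 3 to 13 counts a library on day 0 to 150 to 532 on day 2. Ier2 did not pass the test in either group in the reported fit, and Ier5 fell in CTL. By edgeR's quasi-likelihood test over all 12 libraries, 5 of the 7 members other than Nr4a2 were called higher and 1 lower in CTL, and 5 higher and 0 lower in LIP. Nr4a2 passed the filter only through day 2, where it was high, so it is not counted. Among all 15475 genes tested, 35.3% were called higher and 33.7% lower in CTL, and 36.6% higher and 35.2% lower in LIP, at an adjusted p under 0.05. Under RLE and upper-quartile scaling, DESeq2 and the other filters, the 5 Egr and Nr4a members other than Nr4a2 stayed at 1.64 or above on the log2 scale in both groups. Day, culture and deposited table of results cannot be told apart, because every library of day 2 was cultured. Markers of other cells also moved between the days. NK cell markers (4 genes) summed to 39.0 to 57.7 CPM on day 0 and to 2.75 to 9.08 CPM on day 2. Myeloid markers summed to 5.90 to 13.8 CPM and then to 2.69 to 5.52 CPM. B cell markers summed to 0.963 to 3.07 CPM on day 0 and to 0.806 to 23.6 CPM on day 2. Most of these markers passed the filter through 1 day only, so no calls are given for them. Of the regulatory T cell markers, Foxp3 (log2 fold changes of -0.52 in CTL and -1.11 in LIP) and Ikzf2 (-0.57 and -1.50) were called lower and Il2ra (4.30 and 4.05), which encodes the IL-2 receptor alpha chain, was called higher in both groups. Their sum went from 262 to 430 CPM on day 0 to 1453 to 2013 CPM on day 2. Pancreatic acinar markers summed to 0.602 to 22.8 CPM on day 0 and to 3.49 to 10.3 CPM on day 2. The 1 acinar marker tested, Prss2, was at 0 in all 3 CTL libraries and at most 0.985 CPM in LIP on day 0, and at 2.98 to 10.0 CPM on day 2, and it passed the filter only through day 2. The part of these markers in the results was not tested.

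**Figure D1:**
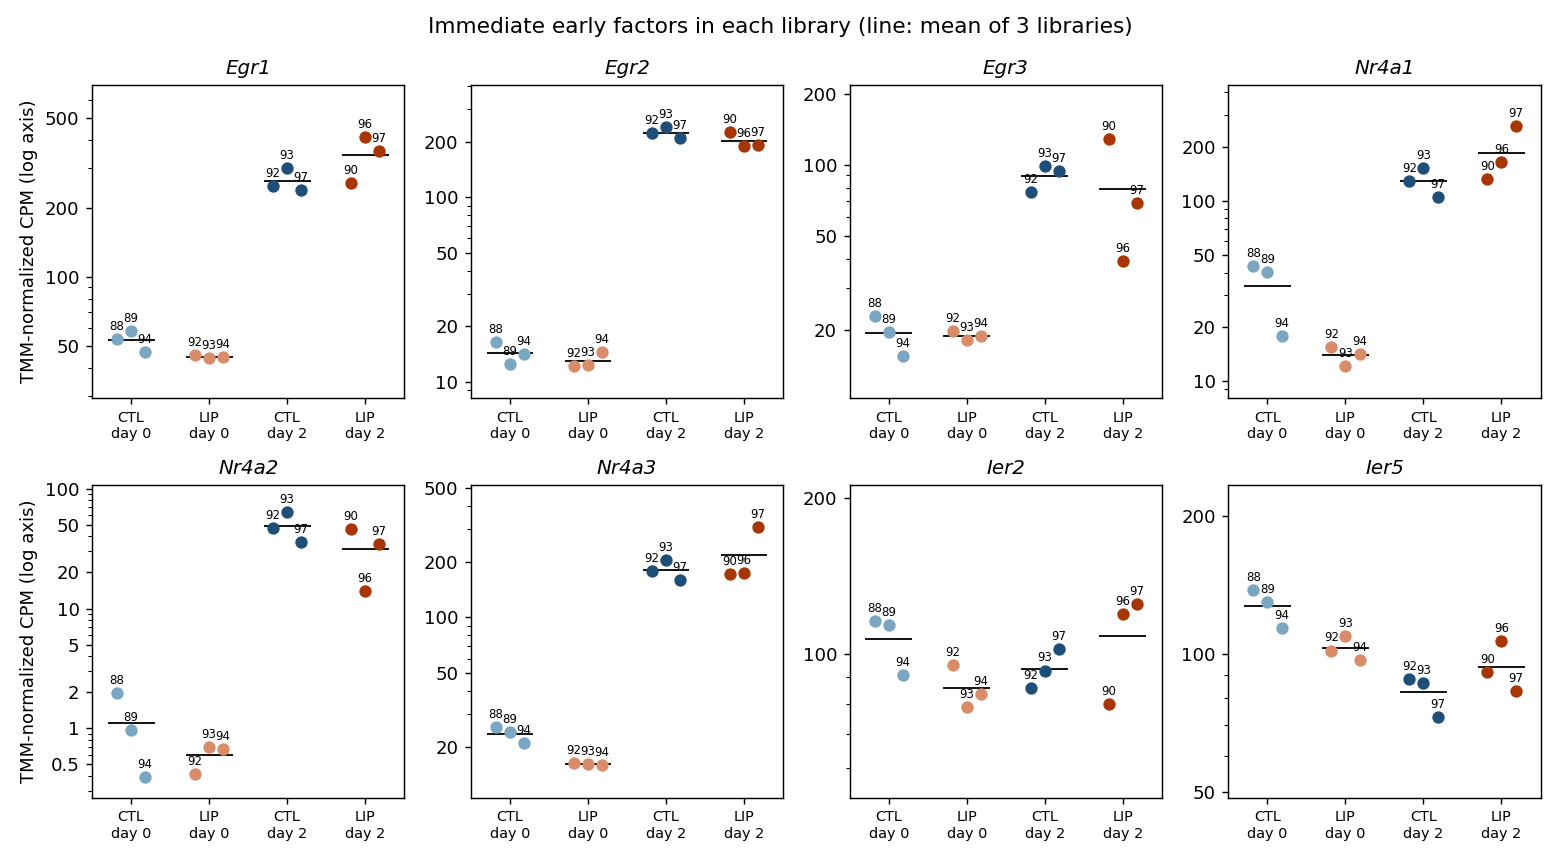
TMM-normalized CPM of each of the 8 members in every library (points, labelled by library number, log axis) in CTL and LIP on day 0 and day 2, with the mean of 3 libraries as a line. The Egr and Nr4a panels climb from day 0 to day 2, Ier2 and Ier5 do not, and on day 0 CTL 94 lies near the LIP libraries in the Nr4a1 panel.

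Egr2, a zinc finger repressor and activator needed for T cell tolerance, was measured on day 0 at 16.4, 12.5 and 14.1 CPM in CTL 88, 89 and 94 and at 12.3, 12.4 and 14.4 CPM in LIP 92, 93 and 94. On day 2 it reached 223.6, 239.5 and 209.9 CPM in CTL 92, 93 and 97 and 227.2, 189.3 and 193.4 CPM in LIP 90, 96 and 97. All 6 cultured libraries lay above all 6 uncultured ones, with CTL and LIP intermingled on both days. The log2 fold change from day 0 to day 2 was 3.97 ± 0.13 (SE, n = 3 libraries a day, edgeR adjusted p = 1.69e-10) in CTL and 3.96 ± 0.13 (edgeR adjusted p = 1.29e-10) in LIP. Egr2 ranked 5 by p-value in both comparisons, and the 2 changes differed by 0.01 on the log2 scale.

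Egr1, the factor most widely used to mark activation of ERK, was measured at 53.5, 58.2 and 46.8 CPM in CTL and at 45.6, 44.2 and 44.5 CPM in LIP on day 0. On day 2 it stood at 249.9, 300.2 and 239.9 CPM in CTL and at 257.8, 408.9 and 356.5 CPM in LIP. LIP 96 and LIP 97 were above every CTL library of day 2, and LIP 90 was among them. Egr1 rose by a log2 fold change of 2.32 ± 0.16 (edgeR adjusted p = 2.91e-08) in CTL and 2.93 ± 0.16 (edgeR adjusted p = 4.21e-09) in LIP.

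Egr3, a close relative of Egr2 with overlapping roles in anergy, was measured at 22.9, 19.5 and 15.4 CPM in CTL and 19.7, 18.2 and 18.7 CPM in LIP on day 0. On day 2 the CTL libraries held 76.7, 98.8 and 93.9 CPM, and LIP 90, 96 and 97 held 128.1, 39.1 and 68.7 CPM. The 3 LIP libraries of day 2 thus spread on both sides of the CTL range, with a coefficient of variation of 57.6% against 12.9% in CTL. Egr3 rose by a log2 fold change of 2.22 ± 0.32 (edgeR adjusted p = 3.47e-05) in CTL and 2.06 ± 0.32 (edgeR adjusted p = 6.32e-05) in LIP.

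Nr4a1, the receptor signal reporter, stood at 43.4, 40.3 and 17.8 CPM in CTL 88, 89 and 94 and at 15.6, 12.1 and 14.2 CPM in LIP on day 0. On day 2 it was measured at 128.4, 152.5 and 104.8 CPM in CTL and at 131.6, 163.9 and 258.7 CPM in LIP. The groups did not overlap on day 0, where CTL 94 lay just above the LIP libraries, and they overlapped on day 2. The log2 fold change with culture was 1.93 ± 0.30 (edgeR adjusted p = 5.72e-05) in CTL and 3.72 ± 0.32 (edgeR adjusted p = 2.64e-07) in LIP. Without CTL 94, the change in CTL was 1.65.

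Nr4a2 was the lowest member on day 0, at 1.96, 0.963 and 0.395 CPM in CTL and 0.413, 0.704 and 0.668 CPM in LIP, from 3 to 13 counts a library. After culture it was measured at 46.8, 63.5 and 35.9 CPM in CTL and at 46.2, 14 and 34.7 CPM in LIP, with LIP 96 the lowest cultured library, as for Egr3. The groups overlapped on both days, and all cultured libraries lay above the uncultured ones. Because Nr4a2 passed the filter only through day 2, no fold or test of its change with culture is given.

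Nr4a3, the relative most often linked to Nr4a1 in T cell exhaustion, was measured at 25.5, 24.0 and 20.9 CPM in CTL and at 16.3, 16.2 and 15.9 CPM in LIP on day 0. On day 2 it stood at 177.3, 203.6 and 160.1 CPM in CTL and at 172.0, 174.9 and 307.1 CPM in LIP, with only LIP 97 outside the CTL range. The 3 LIP libraries of day 0 had a coefficient of variation of 1.17% and all lay below CTL. The log2 fold change with culture was 2.94 ± 0.20 (edgeR adjusted p = 3.66e-08) in CTL and 3.75 ± 0.21 (edgeR adjusted p = 5.51e-09) in LIP.

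Ier2, a nuclear protein induced by growth factors, was measured on day 0 at 115.9, 113.9 and 91.0 CPM in CTL and at 95.2, 78.9 and 83.6 CPM in LIP. Its levels on day 2 were 85.9, 92.8 and 102.0 CPM in CTL and 80.1, 119.5 and 125.0 CPM in LIP, so days and groups overlapped. The log2 fold change with culture was -0.19 ± 0.16 (edgeR adjusted p = 0.284) in CTL and 0.33 ± 0.16 (edgeR adjusted p = 0.0719) in LIP. Ier2 was called higher in LIP without the filter on low counts (0.37, edgeR adjusted p = 0.0168) and without LIP 90 (0.51, edgeR adjusted p = 0.00146).

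Ier5, the heat shock factor partner, was measured at 137.9, 129.8 and 113.8 CPM in CTL and at 101.8, 109.7 and 97 CPM in LIP on day 0. On day 2 it was measured at 88, 86.6 and 72.8 CPM in CTL and at 91.3, 107.0 and 82.9 CPM in LIP. In CTL all cultured libraries were below the uncultured ones, and in LIP the days overlapped. Ier5 fell in CTL by 0.62 on the log2 scale (SE 0.12, edgeR adjusted p = 0.000347), and in LIP its log2 fold change was -0.13 ± 0.12 (edgeR adjusted p = 0.321). Upper-quartile scaling moved the median of all genes by -0.29 in CTL and by -0.32 in LIP on the log2 scale, and under it Ier2 was called lower in CTL and Ier5 lower in LIP, at log2 fold changes of -0.48 and -0.45.

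**Figure D2:**
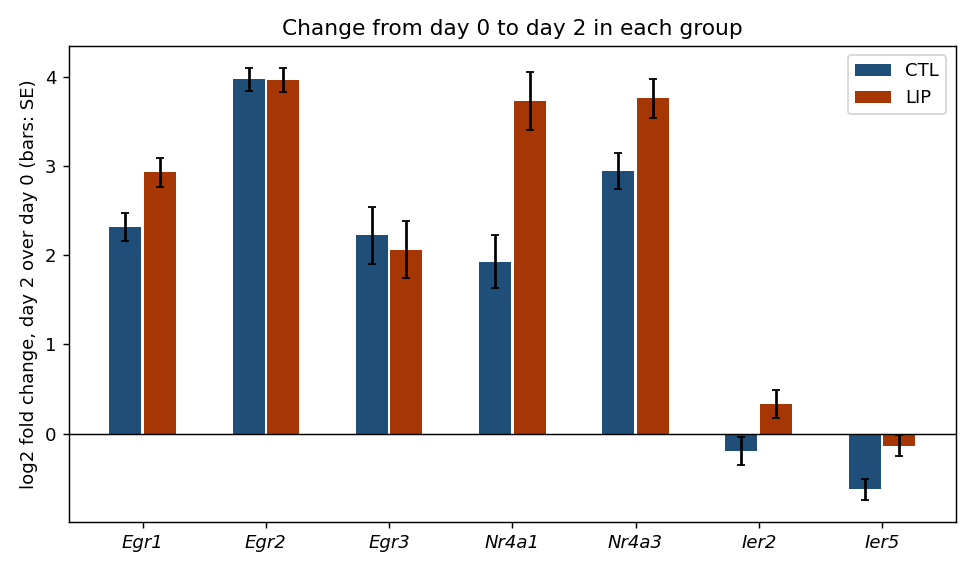
Log2 fold change of 7 members, without Nr4a2, from day 0 to day 2 (bars, with SE as error bars) in CTL and in LIP, fitted with edgeR on all 12 libraries. The 5 Egr and Nr4a members shown are above 1.9 in both groups, and Nr4a1 has the widest gap between CTL (1.93) and LIP (3.72).

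The members changed places in culture. By mean CPM per kilobase of the gene's median transcript length, Ier2 and Ier5 led on day 0, at 70.2 ± 9.06 and 38.8 ± 3.74 in CTL and at 56.4 ± 5.50 and 31.4 ± 1.96 in LIP (SD, n = 3). Their ranges were apart from each other and from the next member, Egr2, in both groups, whereas in CTL the ranges of Egr2, Nr4a1 and Egr1 overlapped between neighbours. Nr4a2 was last in all 4 groups, from 0.165 CPM per kilobase in LIP of day 0 to 13.5 in CTL of day 2. On day 2 Egr2 led at 249 ± 16.4 in CTL and 225 ± 23.1 in LIP, apart from the next member, while the ranges of Ier2, Egr1, Nr4a3 and Nr4a1 overlapped between neighbours. Egr2's place depended on the length used, since its median transcript is 902 bases and its longest 2972. With the longest transcript, Egr2 stood at 75.5 in CTL of day 2, still first, and at 68.4 in LIP, below Egr1 (75.9) and Ier2 (71.0).

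Ratios of expected counts within a library, which do not depend on scaling, also differed between the days. Egr1 exceeded Egr2 by 3.08 to 4.64 times in the 6 libraries of day 0 and by 1.12 to 2.16 times in those of day 2. Egr2 held 0.622 to 0.915 times the counts of Egr3 on day 0 and 1.77 to 4.84 times on day 2. The ratio of Nr4a1 to Nr4a3 was 1.7 in CTL 88 and 1.68 in CTL 89, and between 0.655 and 0.958 in the other 10 libraries, CTL 94 (0.849) included. These ratios were chosen after the values were seen.

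On the mouse assembly GRCm39, the members lie on 8 different chromosomes and are all annotated as protein coding. Egr1 lies at 18:34992876-34998049 (plus strand, 2 exons in the canonical transcript), Egr2 at 10:67371305-67378018 (plus strand, 2 exons) and Egr3 at 14:70314350-70320063 (plus strand, 2 exons). Nr4a1 lies at 15:101151980-101172681 (plus strand, 7 exons), Nr4a2 at 2:56996842-57014331 (minus strand, 8 exons) and Nr4a3 at 4:48045153-48086447 (plus strand, 8 exons). Ier2, at 8:85387960-85389483 (minus strand), and Ier5, at 1:154972107-154975382 (minus strand), consist of 1 exon each. GENCODE annotates 33 transcripts of Nr4a2 and 29 of Nr4a1 but 1 each of Ier2 and Ier5, and the counts used here are sums per gene.

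Whether the ligature was accompanied by a difference before culture was compared on day 0. All 7 members tested had lower levels in LIP, with a median log2 fold change of -0.30 against 0.01 over all 14064 genes tested, and Nr4a1 and Nr4a3 had the largest differences. None of the 7 was called at an adjusted p under 0.05 by edgeR's quasi-likelihood test, 5 had an unadjusted p under 0.05, and DESeq2 called 1. Among all genes, edgeR called 0.0569% higher and 0.37% lower, 13.9% had an unadjusted p under 0.05, and DESeq2 called 0.811% of 25641. Those 25641 are all genes with a DESeq2 p-value, including any that DESeq2 left without an adjusted p. The DESeq2 share is therefore not directly comparable with those of edgeR. Without the filter on low counts 4 members and 2.52% of 25644 genes were called. Nr4a2 did not pass the filter on low counts.

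Nr4a1 (values above) was lower in LIP by 1.27 on the log2 scale (SE 0.27, edgeR adjusted p = 0.0723), and 0.306% of genes had a lower fold change. In DESeq2 the log2 fold change was -1.28 (DESeq2 adjusted p = 0.000121). Nr4a3 had a log2 fold change of -0.53 ± 0.12 (edgeR adjusted p = 0.0842). For both genes each LIP library lay below each CTL library. For Ier5 the difference was -0.30 ± 0.08 (edgeR adjusted p = 0.156) and for Ier2 -0.31 ± 0.10 (edgeR adjusted p = 0.216), and the ranges were apart for Ier5 but not for Ier2, where LIP 92 exceeded CTL 94. Egr1 differed by -0.23 ± 0.09 (edgeR adjusted p = 0.296) with ranges that did not overlap, CTL 94 at 46.8 CPM being next to LIP 92 at 45.6 CPM. Egr2 (-0.13 ± 0.15, edgeR adjusted p = 0.746) and Egr3 (-0.02 ± 0.14, edgeR adjusted p = 0.969) overlapped. In all, 4 of the 7 members had LIP wholly below CTL, against 9.85% of all genes tested with LIP below and 9.26% with LIP above.

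The differences were larger without CTL 94. In that fit Nr4a1 was lower in LIP by 1.58 on the log2 scale (edgeR adjusted p = 8.33e-06), which ranked 9 among 14343 genes. Nr4a3 (-0.61, edgeR adjusted p = 0.0128), Ier2 (-0.42, edgeR adjusted p = 0.0175) and Ier5 (-0.38, edgeR adjusted p = 0.0175) were also called, and Egr1 was not (-0.32, edgeR adjusted p = 0.0663). Without CTL 94, 1.79% of all genes were called higher and 2.8% lower. Without CTL 88, the log2 fold change of Nr4a1 was -1.06 and 0 members were called. In the Nr4a1 values CTL 94 (17.8 CPM) lay closer to the highest LIP library (15.6 CPM) than to CTL 89 (40.3 CPM). CTL 94 was also the only CTL library of day 0 to share its number with a LIP library. The labels do not say what the numbers stand for, so the ligature and label number cannot be fully told apart. Myeloid markers summed to 11.3 CPM in CTL 94, to 5.90 to 6.33 CPM in the other CTL libraries and to 8.13 to 13.8 CPM in LIP, and their part in the result was not tested. Regulatory T cell markers (Foxp3, Ikzf2 and Il2ra) summed to 262 to 353 CPM in CTL and to 392 to 430 CPM in LIP, with no overlap, and Ikzf2 was called higher without CTL 94. Their part was not tested either. NK cell markers summed to 47.1 to 57.7 CPM in CTL and to 39.0 to 44.4 CPM in LIP, also with no overlap. Of these 4 genes 0 were called, Prf1 was at -0.66 (edgeR adjusted p = 0.064) and the other 3 had higher levels in LIP, and Prf1 was called lower without CTL 94. Pancreatic acinar markers summed to 0.602 to 1.18 CPM in CTL and to 0.689 to 22.8 CPM in LIP, highest in LIP 93. The part of these cells was not tested.

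**Figure D3:**
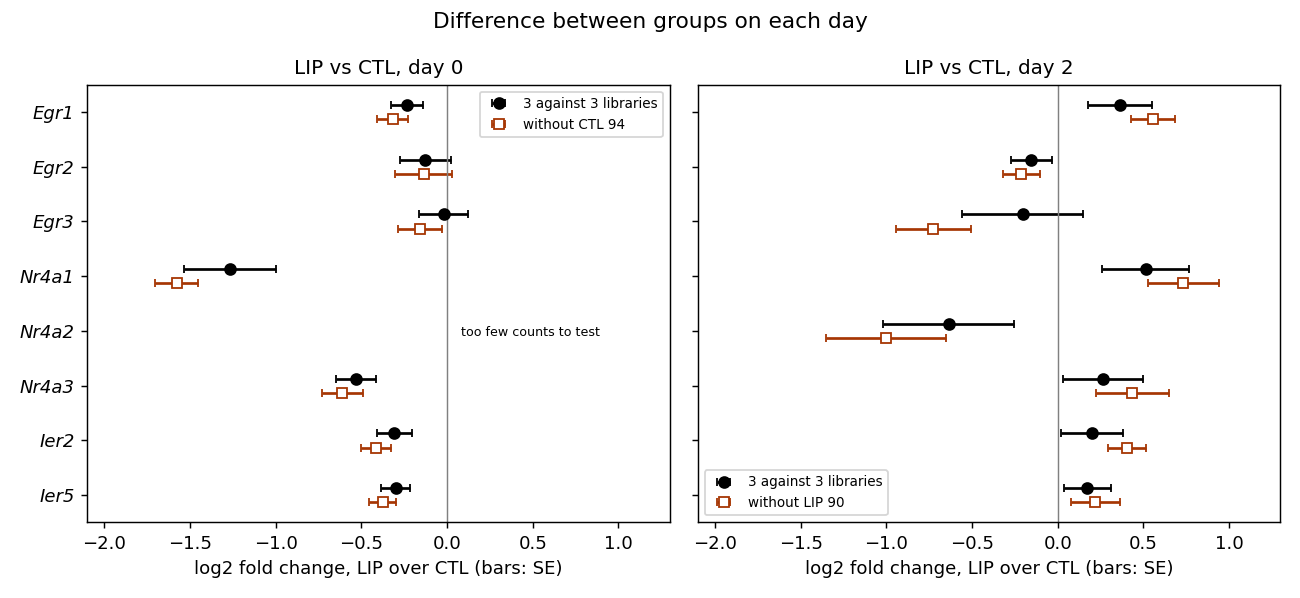
Log2 fold change of LIP over CTL for each member, with day 0 in the left panel and day 2 in the right, with SE as bars, from all libraries (filled circles) and without CTL 94 or LIP 90 (open squares). On day 0 every point lies left of 0 and Nr4a1 lies farthest (-1.27, and -1.58 without CTL 94), while on day 2 points lie on both sides.

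On day 2, 5 members had higher and 3 lower levels in LIP, with a median log2 fold change of 0.19 against -0.01 over all genes, and none was called by edgeR's quasi-likelihood test, by which 0% of the 14041 genes were called in either direction, although 2322 (16.5%) had an unadjusted p under 0.05. None of the 8 members reached an unadjusted p under 0.05, and DESeq2 called 0 of them. The ranges of LIP and CTL overlapped for all 8, against 10.9% of genes wholly higher and 10.5% wholly lower in LIP. The log2 fold changes were 0.51 ± 0.25 for Nr4a1 (edgeR adjusted p = 0.354), 0.36 ± 0.18 for Egr1 (edgeR adjusted p = 0.366), 0.27 ± 0.23 for Nr4a3 (edgeR adjusted p = 0.609), 0.20 ± 0.18 for Ier2 (edgeR adjusted p = 0.617) and 0.17 ± 0.14 for Ier5 (edgeR adjusted p = 0.558). Those below 0 were Nr4a2 at -0.64 ± 0.38 (edgeR adjusted p = 0.437), Egr3 at -0.20 ± 0.35 (edgeR adjusted p = 0.808) and Egr2 at -0.15 ± 0.12 (edgeR adjusted p = 0.557).

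LIP 90 lay within the CTL range for Egr1 and Nr4a1 and was the highest library for Egr3 and the lowest of day 2 for Ier2. Without it, Egr1 (0.56, edgeR adjusted p = 0.0206), Nr4a1 (0.73, edgeR adjusted p = 0.0438) and Ier2 (0.40, edgeR adjusted p = 0.042) were called higher in LIP, and Egr3 (-0.72, edgeR adjusted p = 0.0585) and Nr4a2 (-1.0, edgeR adjusted p = 0.0887) were not called. In that fit 7.74% of all genes were called higher and 6.19% lower. Leaving out another LIP library made the differences smaller. Without LIP 97 the log2 fold change was 0.19 for Nr4a1 and 0.087 for Ier2, and without LIP 96 it was 0.23 for Egr1. The B cell markers Cd79a, Cd79b, Ms4a1 and Pax5 summed to 0.806 CPM in LIP 90, 23.4 CPM in LIP 96 and 23.6 CPM in LIP 97, against 2.33, 2.51 and 13.8 CPM in CTL 92, 93 and 97. Ms4a1 and Pax5 were each at 0 in 1 CTL library of day 2 and Pax5 in 1 LIP library, and all 4 markers had higher levels in LIP without LIP 90. CD8 markers summed to 13.2 CPM in LIP 96 and 9.20 CPM in LIP 97 against 4.43 to 6.33 CPM in the other 4 libraries. Without LIP 90, Cd79b, Cd8b1 and the T cell marker Cd3d were called higher in LIP. Of the regulatory T cell markers, Ikzf2 (-0.46, unadjusted p = 0.00508, edgeR adjusted p = 0.15) and Foxp3 (-0.44, unadjusted p = 0.00708, edgeR adjusted p = 0.168) were wholly lower in LIP on day 2 and were called lower without LIP 90, whereas Il2ra overlapped. The part of these cells in the differences was not tested.

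The change with culture was also compared between the groups. Nr4a1 rose by 1.80 more in LIP than in CTL on the log2 scale (SE 0.42), which did not pass the test of the interaction of group and day (edgeR adjusted p = 0.0876) but did in DESeq2 (1.83, DESeq2 adjusted p = 0.00256). The differences for Nr4a3 (0.81 ± 0.28, edgeR adjusted p = 0.183), Egr1 (0.61 ± 0.22, edgeR adjusted p = 0.186), Ier2 (0.52 ± 0.22, edgeR adjusted p = 0.267) and Ier5 (0.49 ± 0.17, edgeR adjusted p = 0.175) did not pass, nor did those for Egr2 (-0.01 ± 0.18, edgeR adjusted p = 0.992) and Egr3 (-0.16 ± 0.45, edgeR adjusted p = 0.908). By edgeR 0 of the 7 members tested on both days were called, 5 had an unadjusted p under 0.05 and 0.0323% and 0.0194% of the 15475 genes were called with a positive and a negative difference. Among all genes 15.9% had an unadjusted p under 0.05, and DESeq2 called 1 member and 1.86% of 28214 genes, counted as on day 0. Without the filter on low counts 3 members and 2.89% of 28221 genes were called. Without CTL 94, Nr4a1 was called (2.09, edgeR adjusted p = 0.0353), and without LIP 90 so were Nr4a1 (1.99), Nr4a3 (0.96), Egr1 (0.78) and Ier2 (0.70). Among all genes, 0.131% were called with a positive and 0.0375% with a negative difference without CTL 94, and 5.64% and 4.45% without LIP 90. The interaction uses the day 0 libraries that also gave the day 0 difference, so it is no separate evidence of it.

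Of 25 other immediate early genes, 23 were tested on day 0 and all 23 had lower means in LIP, with a median log2 fold change of -0.70, and 4 were called lower and 0 higher. Fosb (-2.34 ± 0.31, edgeR adjusted p = 0.00718), Fos (-1.89 ± 0.32, edgeR adjusted p = 0.0286) and Jun (-1.28 ± 0.20, edgeR adjusted p = 0.0199), subunits of AP-1, were called, and so was Cd69, an early surface marker of activation (-0.90 ± 0.16, edgeR adjusted p = 0.0375), which is named because it completes the 4. The summed level of all 25 genes was 4494, 3943 and 2242 CPM in CTL 88, 89 and 94 and 2285, 1854 and 1911 CPM in LIP 92, 93 and 94. CTL 94 lay inside the LIP range, as it lay near it for Nr4a1, and without it 18 of the 23 were called lower and 0 higher, against 2.8% and 1.79% of all genes. On day 2, 17 of the 25 had higher and 8 lower means in LIP and 0 were called by edgeR, with 9 at an unadjusted p under 0.05, 9 called without LIP 90 (6 higher and 3 lower, against 7.74% and 6.19% of all genes) and a median log2 fold change of 0.15. Changes with culture are counted over genes that passed the filter on both days, of which there were 12946 in all, with 35.9% called higher and 33% lower in CTL and 37.9% and 33.6% in LIP. Of the 23 other immediate early genes among them, 6 rose and 10 fell in CTL (26.1% and 43.5%), and 11 rose and 7 fell in LIP (47.8% and 30.4%). For the interaction of group and day, 22 of the 23 had a positive difference and 1 a negative one, with a median of 1.06 against 0.01 over the 12946 genes, of which 51.6% were positive. Of the 23, 0 were called and 16 (69.6%) had an unadjusted p under 0.05, against 17.1% of the 12946 genes. Tnfaip3 (2.16, edgeR adjusted p = 0.112), Fos (2.04, edgeR adjusted p = 0.0839) and Ppp1r15a (1.93, edgeR adjusted p = 0.114) had larger differences than Nr4a1 (1.80), and are named for that after their values were seen. These values share the day 0 libraries with the day 0 comparison. Atf3, a stress-induced factor, was at 0 in 1 CTL and 2 LIP libraries of day 0 and at most 0.395 CPM in the others, and reached 109 to 135 CPM in CTL and 195 to 208 CPM in LIP on day 2. It passed the filter only through day 2, so no fold is given. Fosb fell by 4.67 in CTL (SE 0.40, edgeR adjusted p = 2.43e-07).

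**Figure D4:**
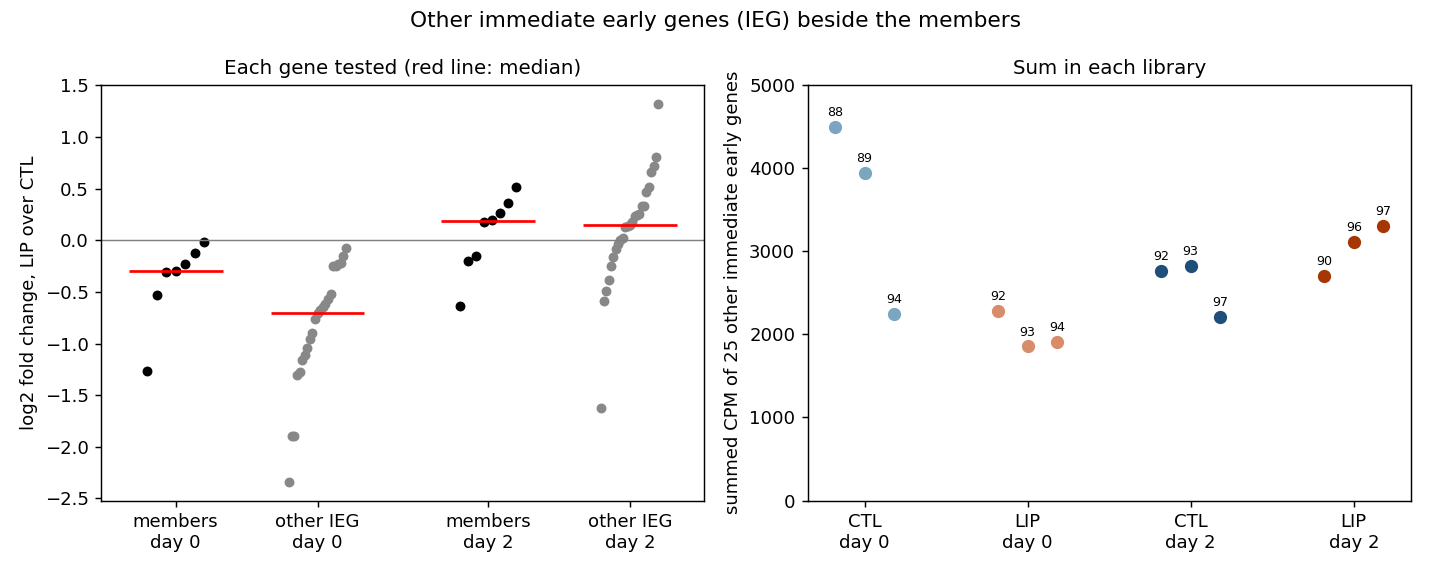
Left, log2 fold change of LIP over CTL for each tested member (black) and each of the other immediate early genes (grey) on both days, with the median as a red line. Right, summed CPM of the 25 other genes in every library: CTL 88 and CTL 89 stand at 4494 and 3943, and CTL 94, at 2242, lies among the LIP libraries of day 0.

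The pathways upstream were compared from fixed lists. Of 21 measured genes of the Ras, ERK and SRF arm, 0 were called between LIP and CTL on either day. Their median log2 fold change was 0.01 on both days. Of the calcineurin, NFAT and MEF2 arm 0 of 15 were called on day 0 and 0 of 16 on day 2. In this second arm 11 of 15 had lower levels in LIP on day 0 (median -0.10) and 12 of 16 on day 2 (median -0.18). At an unadjusted p under 0.05 there were 1 and 2 genes of the first arm, against 13.9% and 16.5% of all genes. In the second arm there were 6 of 15 and 6 of 16, above those shares. Without CTL 94, 0 of 21 genes of the first arm were called on day 0 and 1 of 16 of the second, Orai1, which was lower in LIP. Without LIP 90, 1 gene of the first arm was called higher and 1 lower on day 2 (Sos1 and Hras), and 1 of the second was called lower (Nfatc2). These genes are named because they make up those counts, after their values were seen. With culture, 6 genes of the first arm rose and 6 fell in each group (28.6% each way, below the shares of all genes given above), among them Rasgrp1, the Ras exchange factor downstream of the receptor, which fell by 1.7 in CTL (SE 0.11, edgeR adjusted p = 2.03e-08) and by 1.68 in LIP on the log2 scale. Mapk3, which encodes ERK1, rose by 1.5 in both groups. In the second arm, of 15 genes tested on both days, 5 rose and 6 fell in CTL (33.3% and 40%) and 6 rose and 7 fell in LIP (40% and 46.7%), with Ppp3ca, a calcineurin catalytic subunit, at -1.83 ± 0.14 in CTL and -2.05 ± 0.14 in LIP (edgeR adjusted p = 8.44e-08 and 3.18e-08).

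Partners and targets of the members were counted in the same way. Nab1 and Nab2, which encode corepressors that bind EGR proteins, rose with culture by log2 fold changes of 0.55 ± 0.09 and 1.06 ± 0.17 in CTL (edgeR adjusted p = 8.22e-05 and 8.8e-05) and of 0.62 ± 0.09 and 1.15 ± 0.17 in LIP. Rxra and Rxrb, nuclear receptor partners, were not called in either group, and 0 of these 4 genes were called between LIP and CTL or had an unadjusted p under 0.05, and 0 of 4 were called without CTL 94 on day 0 or without LIP 90 on day 2. Of 12 genes known to depend on EGR2 or EGR3 in T cells, 9 were tested on both days, of which 5 rose and 3 fell in CTL (55.6% and 33.3%) and 4 rose and 3 fell in LIP (44.4% and 33.3%), against 35.9% and 33% of all genes in CTL and 37.9% and 33.6% in LIP. Lag3, an inhibitory receptor (6.46 ± 0.34 in CTL and 6.68 ± 0.34 in LIP), and Tnfrsf9, the costimulator 4-1BB (5.45 ± 0.22 and 5.22 ± 0.21), were among those that rose, while 0 of 10 were called between LIP and CTL on either day, with 1 at an unadjusted p under 0.05 on each. Without CTL 94, 1 of 11 was called lower on day 0 (Cblb), and without LIP 90, 1 of 11 was called higher and 2 lower on day 2 (Lag3, Crtam and Nrn1). Of 13 genes of antigen-experienced and anergic cells, which share Lag3 with that list, 0 were called between LIP and CTL on either day, and 1 and 4 had an unadjusted p under 0.05. Without CTL 94, 1 of 13 was called higher on day 0 (Icos), and without LIP 90, 3 of 12 were called higher and 3 lower on day 2. With culture, of 12 tested on both days, 9 rose and 1 fell in CTL (75% and 8.33%), and 9 rose and 2 fell in LIP (75% and 16.7%). Of the paralogs outside the 8 members, Egr4 was at most 1.31 CPM in any library and was not tested, and Ier5l, a relative of Ier5, was at most 0.844 CPM on day 0, at 0 in 1 CTL library, and at 6.45 to 8.06 CPM in CTL and 3.18 to 5.96 CPM in LIP on day 2. Ier5l passed the filter only through day 2, so no fold is given.

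A mean of log2 CPM was taken over all 8 members, including Nr4a2, which had only 3 to 13 counts a library on day 0. The genes whose log2 CPM followed this mean most closely over the 6 libraries of day 0 were Sod1, Zc3h12a, Ifrd1, Taf7 and Bhlhe41. Their Pearson correlations were from 0.988 to 0.995 among 12367 genes, of which 2.09% exceeded 0.9. Over all 12 libraries they were Lcp2, Wdr62, Nacc1, Ccdc88a and Spry1, but there 24% of genes exceeded 0.9 and the libraries of the 2 days form separate clusters. These correlations are descriptions over libraries that share a group, a day and their depth.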

How the data were processed

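The 12 libraries of CD4+ T cell RNA were made by rRNA depletion with a directional kit. Per the labels' processing notes, reads were checked with FastQC 0.11.9, trimmed with Trimmomatic 0.38 and quantified with RSEM 1.3.0 and Bowtie2 on GRCm39. The paper's methods give another Trimmomatic version, name HISAT2 as the aligner, and give other concentrations of IL-2 and anti-TCRβ antibody than the labels. The authors deposited expected counts per gene, not normalized. Their tables of each day, which hold signal in CPM, fold changes and p-values, served only for gene symbols; 2 columns of signal there match no sample and were not used.

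Expected counts were rounded (73267 values were not whole) and tested with edgeR 4.0.16 in R 4.3.3 (filterByExpr, TMM, glmQLFit and glmQLFTest, Benjamini-Hochberg adjustment over all genes tested, threshold 0.05). LIP and CTL were fitted for each day, and day comparisons and the interaction of group and day on all 12 libraries. SE is the log2 fold change divided by the square root of F. The named genes are the 8 members, up to 3 called genes of each list with the largest log2 fold change, and the 5 genes most like the members. Not all of those are printed, and 1 gene of the marker lists is not reported here. The members and lists were chosen with earlier results of these data known. The alternatives were RLE and upper-quartile scaling, DESeq2 1.42.0, no filter, at least 10 counts in every library, 12 libraries in one fit, the longest transcript and leaving out each library. Counts over the gene lists without CTL 94 or LIP 90, counts over genes that passed the filter on both days, the form of the MEF2 box and the ratios of members were added after seeing the data. The scripts were tested on simulated data. Positions came from GENCODE M39, promoters from RefSeq. Python 3.11.15 with matplotlib 3.10.9 drew the figures.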

Additional observations from a re-analysis of the deposited data

How the results depend on the processing

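The number of members called between LIP and CTL on day 0 was 0 in the reported fit, 1 with DESeq2, 4 without the filter on low counts (where 2.52% of all genes were called) and from 0 to 4 when 1 library was left out, with 4 only without CTL 94. On day 2 it was 0 and ranged from 0 to 3 when 1 library was left out, with 3 only without LIP 90. For the interaction of group and day it was 0 in the reported fit, 1 with DESeq2, 3 without the filter (2.89% of all genes), and from 0 to 4 when 1 library was left out. Calls of other immediate early genes went from 4 to 18 on day 0 without CTL 94 and from 0 to 9 on day 2 without LIP 90. For the log2 fold change of LIP over CTL, Egr3 ranged from -0.16 to 0.11 on day 0 and from -0.72 to 0.13 on day 2, and Nr4a3 from -0.065 to 0.43 on day 2, when 1 library was left out. For the interaction, Egr2 was 0.0083 with RLE scaling and 0.016 with DESeq2, and with 1 library left out ranged from -0.12 to 0.087, Egr3 from -0.72 to 0.17 and Nr4a2, whose day 0 values are few counts, from -0.42 to 0.59. The causes were not tested. No paired analysis was run, because groups compared directly share at most 1 replicate number and the labels do not tie a number to 1 animal. LIP of day 0 and CTL of day 2, which meet only in the interaction, share the numbers 92 and 93. At day 0, 3 to 13 counts of Nr4a2 a library limit what can be said of it.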
